A study of Mus musculus with 6 samples.

Results

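The genes examined here were 10 markers and transcription factors of the epithelial-mesenchymal transition (EMT), namely Cdh1, Cdh2, Epcam, Vim, Fn1, Snai1, Snai2, Zeb1, Zeb2 and Twist1. They were chosen by symbol from a table of read counts, and all 10 were present among its 22116 named genes. The table covered 4T1, a cell line from a mouse mammary carcinoma, with 3 libraries from cells given DMSO, the solvent control, and 3 from cells given 10 μM P3FI-90, an inhibitor of the histone demethylase KDM3B, both for 24 h. The p-values set the difference between groups against the spread of libraries within a group. Nothing in the labels named separate cultures for the libraries, so that spread may be technical. All libraries came from bulk RNA of 1 cell line, in which fewer cells of a type and less RNA per cell cannot be told apart.

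EMT is the programme by which epithelial cells lose their junctions and apical-basal polarity and take on features of mobile mesenchymal cells. E-cadherin (Cdh1) and EpCAM (Epcam) mark the epithelial state, whereas N-cadherin (Cdh2), vimentin (Vim) and fibronectin (Fn1) mark the mesenchymal one. Transcription factors of the SNAIL (Snai1, Snai2), ZEB (Zeb1, Zeb2) and TWIST (Twist1) families are known to drive it, and the SNAIL and ZEB proteins repress epithelial genes through E-box sequences in promoters. Many carcinoma cells hold epithelial and mesenchymal markers at the same time.

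The E-box bound by SNAIL and ZEB proteins was searched for as CACCTG or CAGGTG, which are the same site read on either strand, in RefSeq promoter windows of 250 bases before and 50 bases after each annotated start (build GRCm38.p6). Windows were given for 5 of the 10 genes (Vim, Zeb2, Snai1, Twist1 and Epcam), 8 windows in all, and 2 of the 8, those of Epcam and Snai1, held the letters, near the share of all windows, 6640 of 32851 (20.2%). The 250 bases before the start are shown for Epcam, which held 2 sites, for Snai1, which held 1, and for the first of the Zeb2 windows, the factor gene whose call held under every alternative run. Capitals mark the searched letters. The Epcam window lay at chr17:87635729-87635978 on the plus strand, with sites that begin at positions -187 and -19 from the start.
Epcam: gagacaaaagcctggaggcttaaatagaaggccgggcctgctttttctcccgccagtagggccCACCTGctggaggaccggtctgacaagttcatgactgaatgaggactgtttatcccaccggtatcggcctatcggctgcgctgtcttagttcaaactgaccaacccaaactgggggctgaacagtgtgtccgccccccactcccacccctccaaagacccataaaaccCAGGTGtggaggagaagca
The Snai1 window lay at chr2:167537945-167538194 on the plus strand, with its site at position -126.
Snai1: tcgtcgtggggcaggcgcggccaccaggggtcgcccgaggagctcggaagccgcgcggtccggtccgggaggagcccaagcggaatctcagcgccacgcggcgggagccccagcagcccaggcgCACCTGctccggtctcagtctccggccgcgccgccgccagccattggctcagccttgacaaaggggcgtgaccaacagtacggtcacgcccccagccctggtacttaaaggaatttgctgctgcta
The Zeb2 window lay at chr2:45117443-45117692 on the minus strand and held none of the letters.
Zeb2: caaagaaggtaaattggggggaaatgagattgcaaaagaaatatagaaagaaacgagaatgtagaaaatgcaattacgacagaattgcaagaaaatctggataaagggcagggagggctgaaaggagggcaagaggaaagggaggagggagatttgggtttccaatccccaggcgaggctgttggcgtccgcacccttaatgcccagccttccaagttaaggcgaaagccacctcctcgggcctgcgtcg
A match describes letters only, and binding at these places was not measured.

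Library totals on named genes lay between 31327094 and 37395732 counts, and the effective library sizes were set by the trimmed mean of M values (TMM), whose factors were 0.927 to 0.930 in the DMSO libraries and 1.08 in the P3FI-90 libraries. Values below are counts normalized this way, with fold changes from edgeR's quasi-likelihood fit over 12288 genes and p-values adjusted over all of them. A gene was called higher or lower at an adjusted p under 0.05. The response was broad, with 79.3% of the genes called (39.9% higher and 39.4% lower after P3FI-90) and 81.2% without overlap between the groups, so a call on its own did not set a gene apart from the rest. Scaling to plain library totals instead moved the median of all genes up by 0.214 on the log2 scale. The labels give an epithelial cell type, and its 5 markers read here, Epcam, Cdh1, Krt8, Krt18 and Krt19, had at least 4092 normalized counts in every library, while Vim and Fn1 lay above all 5 after DMSO.

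Of the 10 EMT genes, 8 had enough counts to be tested. After P3FI-90, 5 of these 8 were called lower (Vim, Epcam, Cdh1, Twist1 and, with a direction that turned under library-total scaling, Fn1), 2 were called higher (Zeb2 and Zeb1) and Snai1 was not called, so 87.5% were called, beside 79.3% of all genes. The groups did not overlap for 6 of the 8, beside 81.2% of all genes. The median log2 fold change of the 8 was -0.18, beside 0.01 over all genes tested, and 0.03 beside 0.23 under library-total scaling. Of the 8, Zeb1 passed the filter on low counts only through its P3FI-90 libraries, and Cdh2 and Snai2 did not pass it. Vim, Epcam and Zeb2 stood out in size, at 3.23-fold lower, 2.49-fold lower and 3.29-fold higher, while Cdh1, Twist1 and Fn1 were 1.24-fold, 1.18-fold and 1.09-fold lower.

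**Figure D1:**
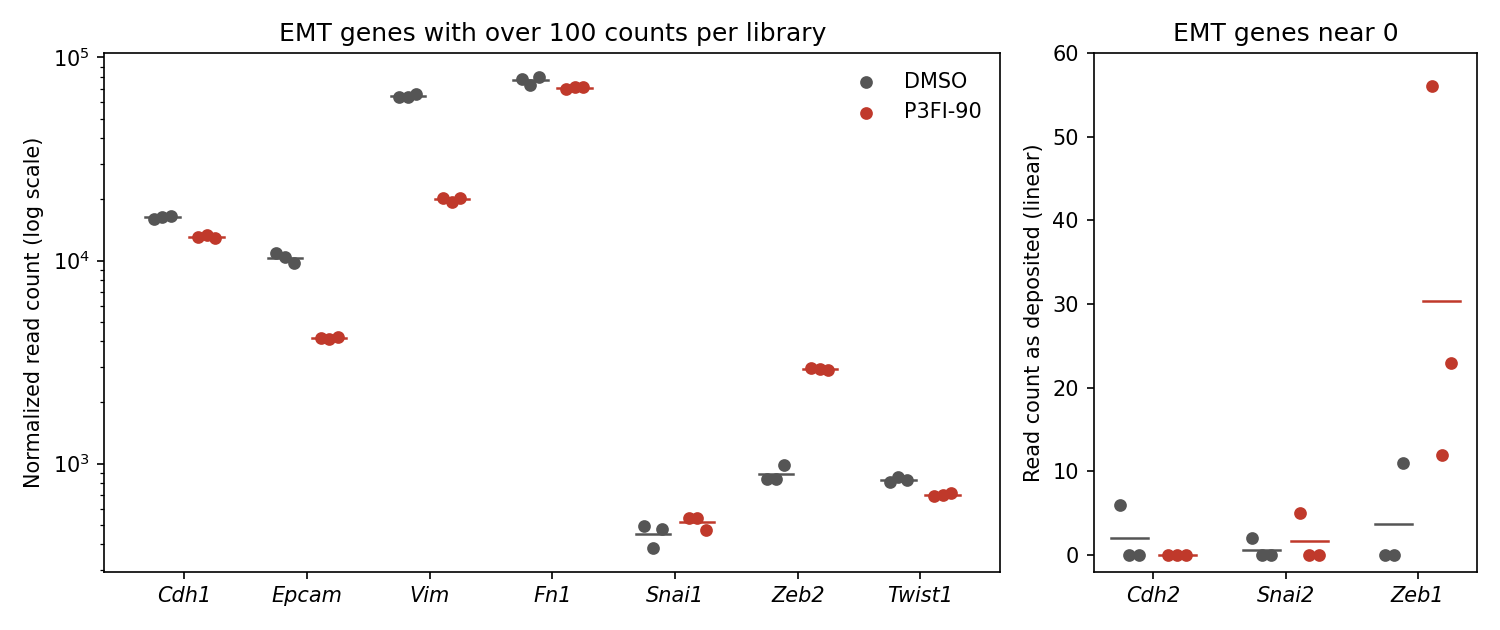
Normalized counts on a log axis of 7 EMT genes (left) and raw counts on a linear axis of Cdh2, Snai2 and Zeb1 (right) in the 3 DMSO and the 3 P3FI-90 libraries, 1 point per library, with lines for the group means. Vim, Epcam and Zeb2 show a wide gap between the groups, Snai1 overlaps, and no library of Cdh2, Snai2 or Zeb1 exceeds 56 counts.

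Epcam encodes a surface glycoprotein of epithelial cells that takes part in cell adhesion. It had 10827, 10408 and 9737 normalized counts in the DMSO libraries and 4144, 4092 and 4191 in the P3FI-90 libraries. The groups were far apart, and the P3FI-90 libraries were close to each other. The mean fell from 10324 ± 550 to 4142 ± 49.4 (SD, n = 3), a 2.49-fold decrease (log2 fold change -1.32, SE 0.041, edgeR's quasi-likelihood adjusted p = 1.78e-12). Among all genes tested, 5.79% had a log2 fold change as low or lower.

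Cdh1 encodes E-cadherin, the adhesion molecule of epithelial adherens junctions. It had 15993, 16401 and 16534 normalized counts in the DMSO libraries and 13104, 13328 and 12877 in the P3FI-90 libraries. Every P3FI-90 library lay below every DMSO library, but the step was small. The mean was 16309 ± 282 after DMSO and 13103 ± 226 after P3FI-90 (SD, n = 3), 1.24-fold lower (log2 fold change -0.32, SE 0.031, edgeR's quasi-likelihood adjusted p = 3.10e-07). This change sat in the middle of the distribution, with 34.3% of all genes as low or lower. With scaling to library totals it was -0.10 and was still called lower.

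Vim encodes vimentin, the intermediate filament protein of mesenchymal cells, and it was among the most abundant transcripts of the DMSO libraries. It had 64147, 63889 and 65933 normalized counts in the DMSO libraries and 20402, 19505 and 20197 in the P3FI-90 libraries. The values were tight within each group and did not overlap. The mean fell from 64656 ± 1113 to 20035 ± 470 (SD, n = 3), a 3.23-fold decrease (log2 fold change -1.69, SE 0.028, edgeR's quasi-likelihood adjusted p = 4.93e-15). It was the largest fall among the tested EMT genes, and only 2.80% of all genes had a log2 fold change as low or lower. By mean normalized count, Vim went from rank 37 to rank 140 of the 22116 genes.

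Fn1 encodes fibronectin, a matrix glycoprotein. It had 78046, 73255 and 80411 normalized counts in the DMSO libraries and 69793, 71218 and 71462 in the P3FI-90 libraries. The highest P3FI-90 library lay just below the lowest DMSO library. The mean was 77237 ± 3646 after DMSO and 70824 ± 902 after P3FI-90 (SD, n = 3), with a log2 fold change of -0.13 (SE 0.031, edgeR's quasi-likelihood adjusted p = 0.00204), which turned to 0.09 (adjusted p = 0.0156) with scaling to library totals. Exons of Fn1 overlap a gene on the opposite strand, Apol7d. It remained one of the most abundant transcripts, at rank 23 after DMSO and rank 7 after P3FI-90.

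Cdh2, which encodes N-cadherin, was almost not detected. Its raw counts were 6, 0 and 0 in the DMSO libraries and 0, 0 and 0 in the P3FI-90 libraries. A count of 0 allows up to 3 counts, which is 0.0802 to 0.0958 CPM in these libraries, counting error only. It was not tested between the groups by edgeR, and its ratio to Cdh1 is given with the other ratios.

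**Figure D2:**
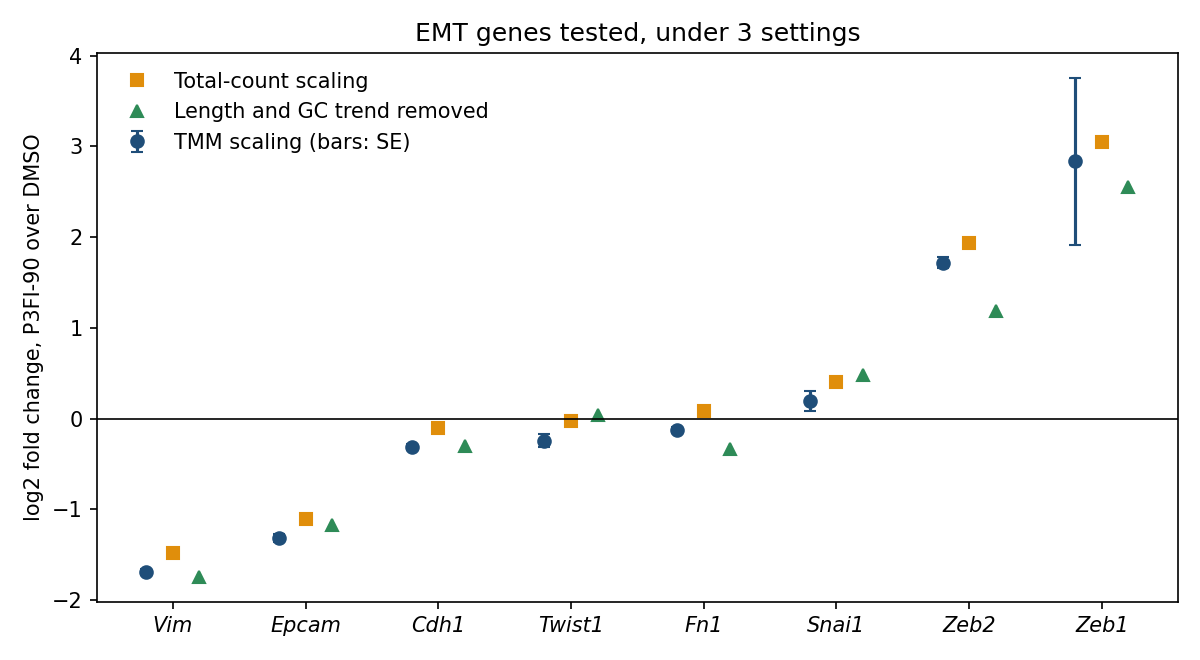
Log2 fold change (P3FI-90 over DMSO) of the 8 tested EMT genes under TMM scaling (bars, SE), under scaling to total counts, and with the trend against exonic length and GC content removed. Vim, Epcam and Zeb2 keep their side under all 3, at -1.69, -1.32 and 1.72 with TMM, while Fn1 and Twist1 cross 0 under 1 of them.

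Zeb2 encodes a zinc finger repressor that binds E-boxes. It had 838, 843 and 988 normalized counts in the DMSO libraries and 2947, 2940 and 2906 in the P3FI-90 libraries. The groups were well apart, with the least spread in the P3FI-90 libraries. The mean rose from 890 ± 85.2 to 2931 ± 22.1 (SD, n = 3), a 3.29-fold increase (log2 fold change 1.72, SE 0.063, edgeR's quasi-likelihood adjusted p = 9.26e-12). Of all genes tested, 5.58% had a log2 fold change as high or higher. Exons of Zeb2 overlap those of Zeb2os on the opposite strand, and exons of Zeb1 those of Gm10125, neither with a row in the table, and whether the counting used strand is not given in the sources used here.

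Zeb1, the paralogue of Zeb2, was close to the limit of detection. Its raw counts were 0, 0 and 11 in the DMSO libraries and 56, 12 and 23 in the P3FI-90 libraries. All P3FI-90 libraries held reads, but after normalization the lowest of them (10.8) lay under the highest DMSO library (11.2). Summed over libraries, 11 counts stood against 91, a ratio of 7.23 per library size with a 95% exact counting interval of 3.86 to 15.0, counting error only. The interval takes each count as a separate read, although both mates of a pair may have been counted. The fitted log2 fold change was 2.83 (SE 0.92, edgeR's quasi-likelihood adjusted p = 0.0108), but the call was lost with DESeq2 (adjusted p = 0.148) and without P3FI-90 replicate 1 (log2 fold change 2.06, adjusted p = 0.0880). Without DMSO replicate 3, the only DMSO library with reads, the remaining DMSO libraries were at 0. The P3FI-90 level was then at least 17.2-fold higher, taken against a floor of 3 counts over the group. That figure follows from which library was left out and is not a lower bound for all 6 libraries.

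Snai1 encodes SNAIL, a repressor of the E-cadherin gene. It had 495, 383 and 477 normalized counts in the DMSO libraries and 537, 542 and 471 in the P3FI-90 libraries. The groups overlapped, since the lowest P3FI-90 library fell below a pair of DMSO libraries. The means were 451 ± 60.02 and 517 ± 39.6 (SD, n = 3), and the difference did not pass the test (log2 fold change 0.19, SE 0.11, edgeR's quasi-likelihood adjusted p = 0.125). With scaling to library totals it was 0.41 and was called higher (adjusted p = 0.00381).

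Snai2, which encodes SLUG, was almost not detected. Its raw counts were 2, 0 and 0 in the DMSO libraries and 5, 0 and 0 in the P3FI-90 libraries, so 1 library of each group held all its reads. The ratio of the sums per library size was 2.19, with a 95% exact counting interval of 0.358 to 22.9, which covers both directions.

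Twist1 encodes a basic helix-loop-helix factor. It had 811, 862 and 832 normalized counts in the DMSO libraries and 694, 700 and 719 in the P3FI-90 libraries. The P3FI-90 libraries all lay below the DMSO libraries. The mean was 835 ± 26.01 after DMSO and 705 ± 12.9 after P3FI-90 (SD, n = 3), with a log2 fold change of -0.24 (SE 0.069, edgeR's quasi-likelihood adjusted p = 0.00517). With scaling to library totals the log2 fold change was -0.03 and the call was lost (adjusted p = 0.699). The exact two-sided permutation test gave p = 0.1, the smallest value that 3 against 3 libraries allow, for Cdh1, Epcam, Vim, Fn1, Zeb2 and Twist1.

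Fold changes in these libraries moved with transcript length. The median log2 fold change was -0.27 in the shortest of 5 equal classes (204 to 2499 exonic bases), which held Epcam, Snai1 and Twist1, and -0.02 in the middle length class (3751 to 5236), which held Cdh1 and Vim. It was 0.26 in the longest class (7599 to 123179), which held Fn1, Zeb1 and Zeb2. With the trend of fold change against length and GC content removed, an alternative added after the data were seen, Zeb2 was at 1.18 and still called higher. Under it Vim and Epcam were still called lower, Twist1 was at 0.04 (adjusted p = 0.587), Snai1 was at 0.48 and called higher (adjusted p = 0.00116), and Fn1 was at -0.33. The part of length in these results was not tested further.

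Levels were compared between genes per kilobase of exonic length. After DMSO the order was Vim (13632 normalized counts per kilobase), Fn1 (6610), Epcam (4703), Cdh1 (3566), Twist1 (513), Snai1 (279) and Zeb2 (44.6), and no neighbours in it overlapped. After P3FI-90 the order was Fn1 (6061), Vim (4224), Cdh1 (2865), Epcam (1887), Twist1 (433), Snai1 (319) and Zeb2 (147), again without overlap between neighbours. Fn1 thus stood above Vim and Cdh1 above Epcam after P3FI-90, the reverse of the order after DMSO. Zeb1, Snai2 and Cdh2 came last in both groups, with means below 3 per kilobase, and overlapped each other. Per kilobase of the longest transcript instead, Zeb2 (321) and Snai1 (319) overlapped after P3FI-90.

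Ratios of markers within a library do not depend on how libraries are scaled. The log2 ratio of Vim to Cdh1 counts was 2.00, 1.96 and 2.00 in the DMSO libraries and 0.64, 0.55 and 0.65 in the P3FI-90 libraries. The mean went from 1.99 ± 0.022 to 0.61 ± 0.055 (SD, n = 3), a difference of -1.37 (SE 0.034), or from 3.96 to 1.53 Vim reads per Cdh1 read. Relative to the epithelial cadherin gene, the mesenchymal filament gene was lower in every P3FI-90 library than in any DMSO library.

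The other ratios of markers at high counts differed by less. Vim to Epcam went from 2.65 ± 0.10 to 2.27 ± 0.024 on the log2 scale (difference -0.37, SE 0.059). Fn1 to Cdh1 moved the opposite way, from 2.24 ± 0.072 to 2.43 ± 0.033 (difference 0.19, SE 0.046). A ratio within a library is not free of the trend with transcript length. Fn1 lay in the longest length class (median log2 fold change 0.26) and Cdh1 in the middle one (-0.02). The part of length in this ratio was not tested. For these 3 ratios the groups did not overlap, and the exact two-sided permutation test gave p = 0.1, the smallest possible, and 0.2 after Benjamini-Hochberg adjustment over the 6 ratios examined. The ratios of Zeb2 to Zeb1, Cdh2 to Cdh1 and Snai2 to Snai1 overlapped between the groups (exact permutation p = 0.3, 0.8 and 0.9) and rested on counts near 0.

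**Figure D3:**
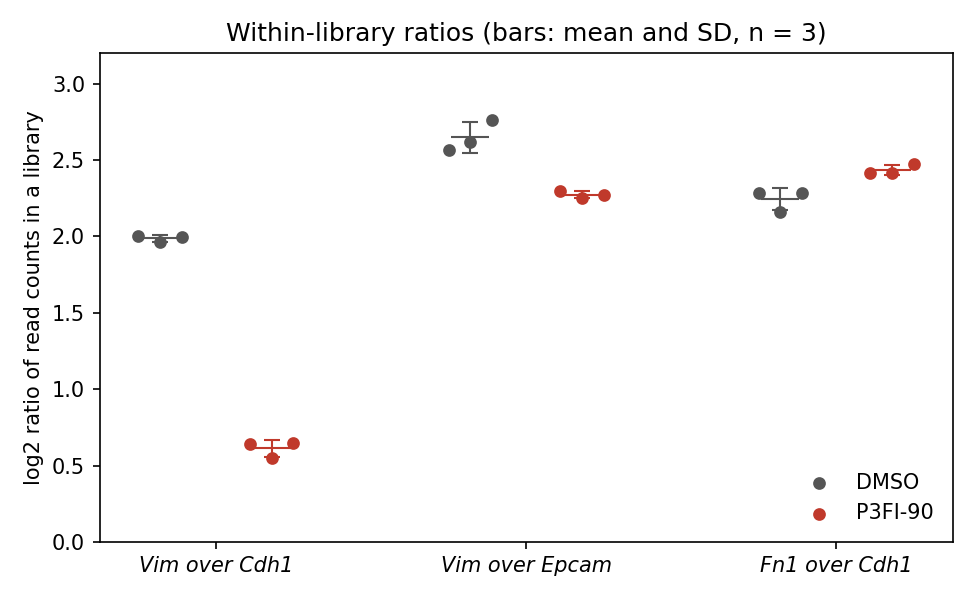
Log2 ratio of marker counts within each library, with a pseudocount of 0.5, for Vim over Cdh1, Vim over Epcam and Fn1 over Cdh1, 1 point per library, with the group mean and SD (n = 3). Vim over Cdh1 sits near 1.99 in the DMSO libraries and near 0.61 in the P3FI-90 libraries, while Fn1 over Cdh1 sits near 2.24 and 2.43.

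Other genes of the same processes were read from 7 lists, each set against 79.3% called and a median log2 fold change of 0.01 over all genes. Under library-total scaling the median over all genes was 0.23, and 62.9% of the calls were higher. Values under that scaling are to be read beside these. Among 24 junction and surface genes of epithelial cells, all tested, 17 were lower, 5 higher and 2 not called, with a median log2 fold change of -0.47. The keratins Krt8 and Krt18, which form the filaments of simple epithelia, fell by 1.18 each on the log2 scale, Krt8 from 36377 ± 1174 to 16069 ± 398 normalized counts. Crb3, a polarity protein of the apical membrane, rose from 356 ± 11.3 to 1604 ± 43.0 (log2 fold change 2.17), the tight junction gene Cgn rose by 0.64 and the membrane protease gene St14 by 0.45. Under library-total scaling 14 were lower and 7 higher (median -0.26).

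Cadherins work through catenins, which tie them to actin. Of 11 genes of the cadherin-catenin and nectin complexes, 7 were lower, 3 higher and 1 not called (median -0.31). Ctnnd1, which encodes p120-catenin, the stabiliser of cadherins at the membrane, went from 19462 ± 560 to 11712 ± 125 (log2 fold change -0.73). Ctnnb1 (β-catenin) had a log2 fold change of -0.31, close to that of Cdh1, and the nectin gene Nectin2 fell by 1.31. Afdn (0.38) and Plekha7 (0.25), both junctional scaffolds, and Nectin4 (1.45, at 17.2 ± 5.55 and 47.5 ± 15.9 normalized counts) were higher. Afdn had 19368, 19061 and 14511 normalized counts in the P3FI-90 libraries, the last close to the highest DMSO library (13854). With the length and GC trend removed, 1 gene of this list was higher and 7 were lower. Scaled to library totals, 5 were lower and 3 higher (median -0.09).

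Of 17 regulators of the epithelial state, 16 were tested, with 7 lower, 5 higher and 4 not called (median -0.12). Under library-total scaling 4 were lower and 7 higher, so that 63.6% of calls were higher, beside 62.9% over all genes. The median was then 0.09, beside 0.23 over all genes. With the length and GC trend removed the median was -0.05, with 6 lower and 7 higher. Esrp2 and Esrp1, splicing factors of epithelial isoforms, both fell, Esrp2 from 2027 ± 29.8 to 741 ± 13.9 (log2 fold change -1.45) and Esrp1 by 0.39. The ETS factor gene Ehf fell by 0.77. The Krüppel-like factor genes Klf4 and Klf5 rose, Klf4 from 243 ± 8.26 to 832 ± 29.1 (log2 fold change 1.78) and Klf5 by 0.72. Grhl1, a grainyhead factor of epithelia, rose from 36.9 ± 11.8 to 197 ± 27.3 (log2 fold change 2.42).

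Of 17 further transcription factors tied to EMT, 13 were tested, with 8 lower, 2 higher and 3 not called (median -0.53), and Gsc and Tbx3 were at 0 in every library. The median was -0.86 with the length and GC trend removed, also with 8 lower and 2 higher, and -0.32 under library-total scaling, with 7 lower and 3 higher. Sox4 fell from 7473 ± 289 to 2417 ± 65.0 (log2 fold change -1.63), Foxc1 by 0.90 and the architectural factor gene Hmga2 by 0.53. Sox9 rose from 1374 ± 51.3 to 2507 ± 48.1 (log2 fold change 0.87) and Snai3, a further SNAIL family gene, from 101 ± 23.9 to 250.8 ± 31.4 (1.31). Foxq1 was at 25.4 ± 6.96 and 38.8 ± 5.54 and did not pass the test.

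**Figure D4:**
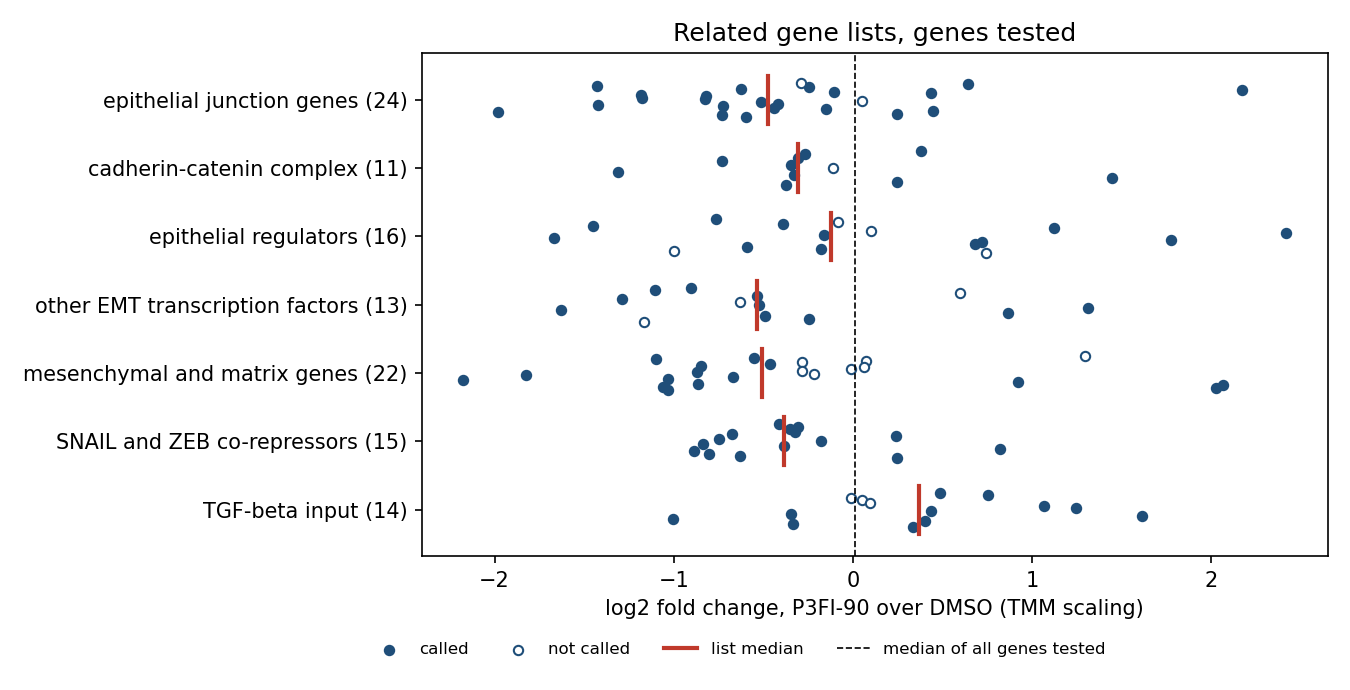
Log2 fold change (P3FI-90 over DMSO, TMM scaling) of the tested genes in 7 related lists, 1 point per gene, filled where called, with the list median in red and the median of all genes as a dashed line. The TGF-beta list, which pools pathway genes with inhibitors, has its median at 0.37 and the other 6 have medians between -0.53 and -0.12.

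Of 30 mesenchymal and matrix genes, 22 were tested, with 12 lower, 3 higher and 7 not called (median -0.51). S100a4, a calcium-binding protein used as a mesenchymal marker, fell along with Vim, from 14731 ± 285 to 3261 ± 52.4 normalized counts (log2 fold change -2.18). The stromelysin gene Mmp3 fell by 1.82 and the matrix protein gene Sparc by 0.87. The matrix gene Tnc rose from 199 ± 46.8 to 815 ± 69.3 (log2 fold change 2.03) and the actin-binding protein gene Tagln from 33.1 ± 4.03 to 140 ± 13.4 (2.07). Under library-total scaling 10 were lower and 6 higher (median -0.29), and without P3FI-90 replicate 2 the number higher was 5.

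SNAIL and ZEB proteins repress through chromatin partners. All 15 co-repressor genes examined were called, 12 lower and 3 higher (median -0.39). Smarca4 (BRG1), a remodelling ATPase, fell by 0.80, the scaffold gene Sin3a by 0.89 and the histone H3 lysine methyltransferase gene Ehmt2 (G9a) by 0.67. Rcor1, which encodes CoREST, rose from 3907 ± 126 to 6897 ± 328 (log2 fold change 0.82), and the Polycomb genes Ezh2 (0.24) and Suz12 (0.25) were higher. Scaled to library totals, 11 were lower and 3 higher (median -0.17).

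TGF-beta is a main inducer of EMT. Of 14 genes of its ligands, receptors, SMADs and inhibitors, all tested, 8 were higher, 3 lower and 3 not called (median 0.37), and with the length and GC trend removed 8 were higher and 4 lower (median 0.22). Among the ligands, Tgfb2 rose from 328 ± 37.0 to 1007 ± 18.1 (log2 fold change 1.62), while Tgfb3 fell by 1.00 and Tgfb1 by 0.35. The receptor gene Tgfbr2 fell by 0.33. Of the inhibitors, the ubiquitin ligase gene Smurf1 rose from 4201 ± 156 to 9964 ± 230 (1.25) and Skil, which encodes a SMAD co-repressor, by 0.76. The other inhibitor genes of the list, Smad7 (1.07), Ski (0.49) and Smurf2 (0.44), were also called higher. The ligand and receptor genes shared no direction, with Tgfbr1 (0.40) and Tgfbr3 (0.34) higher, and Smad2, Smad3 and Smad4 were not called. The list median thus pools inhibitors that rose with pathway genes that were mixed. After library-total scaling 11 were higher and 2 lower (median 0.59).

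Markers of other cell types were read beside the EMT genes. The summed normalized counts of 6 leukocyte markers were 368 to 434 in the DMSO and 279 to 405 in the P3FI-90 libraries, almost all of it from Cd68 (382 ± 45.2 and 330.3 ± 55.2), with Adgre1 at 0 throughout, and neither of the 2 tested was called. Those of 5 endothelial markers were 0 to 13.3 and 21.6 to 35.3, with the 1 tested, Pecam1, at raw counts of 0, 0 and 13 after DMSO and 20, 17 and 27 after P3FI-90, so that it passed the filter on low counts only through its P3FI-90 libraries. Those of 6 fibroblast markers were 1411 to 1441 and 972 to 1065, with Lum and Thy1 at 0 and 1 of the 2 tested, Pdgfra, called lower. Pdgfra alone made up nearly all of that sum, at 1355 ± 17.6 and 958 ± 56.5, while Col1a1 was at 70.1 ± 6.40 and 57.5 ± 11.8 and was not called. Pdgfra moved in the direction of Vim, at a small share of its level, and its part in the result was not tested. After DMSO the sums of the leukocyte and fibroblast markers were of the order of the counts of Snai1, Twist1 and Zeb2. After P3FI-90 they were of the order of those of Snai1 and Twist1, while Zeb2 lay above both sums, at 2906 to 2947.

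Kdm3b, the gene of the inhibited demethylase, had 2791, 2924 and 2839 normalized counts in the DMSO libraries and 3049, 3160 and 3119 in the P3FI-90 libraries (log2 fold change 0.13, SE 0.043, edgeR's quasi-likelihood adjusted p = 0.0169). The groups were close and the call was lost when DMSO replicate 1, P3FI-90 replicate 2 or P3FI-90 replicate 3 was left out (adjusted p = 0.0627, 0.0588 and 0.0518) and under upper-quartile scaling (log2 fold change 0.09, adjusted p = 0.0801). An mRNA level does not measure inhibition of the enzyme.

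As a description, the genes whose log2 levels ran closest to a marker over the 6 libraries were found among 10570 genes by Pearson's r. They were Nab2, Wee1 and Klhl23 for Cdh1 (all r = 0.999), and Capg, Tcp1 and Hnrnph1 for Vim (all r above 0.999). For Fn1 they were Slc25a29, Haspin and Kifbp (r = 0.990, 0.989 and 0.989). The libraries fall into 2 groups of 3, so these values mainly express the difference between the groups.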

How the data were processed

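RNA-seq of 4T1 cells (3 DMSO and 3 P3FI-90 libraries, Illumina mRNA kit) was deposited by the authors as 1 table of read counts per gene, not normalized. The submitters' processing notes name CASAVA, HISAT2, StringTie and GRCm39 without roles or versions; strandedness is not given in the sources used here. Genes with a count of 2 outnumbered genes with a count of 1 (311 against 81 in DMSO replicate 1), so both mates of a pair may have been counted, and halved counts were tried as an alternative chosen after seeing the data. Of 22401 entries, 285 unnamed assembled transcripts (0.483 to 0.556% of counts) were left out.

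Counts were filtered with filterByExpr, scaled by TMM and tested with edgeR 4.0.16 (glmQLFit, glmQLFTest) in R 4.3.3 over 12288 genes without covariates, with Benjamini-Hochberg adjustment. The common biological coefficient of variation was 0.0648. DESeq2 1.42.0, limma 3.58.1, other scalings and filters, a replicate block and leaving out each library were alternatives. Within-library ratios used a pseudocount of 0.5. Exonic lengths came from a GRCm38 annotation and promoters from RefSeq GRCm38.p6, and no coordinates were converted to GRCm39.

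All 10 EMT genes are named, with the 3 genes of smallest p in each direction from each of the 7 lists, Kdm3b, and the 3 genes closest to Cdh1, Vim and Fn1. Cd68, Pecam1, Pdgfra, Col1a1 and the genes at 0 in every library were named after their values were seen. So were Tgfbr1, Tgfbr3, Smad2, Smad3, Smad4, Smad7, Ski and Smurf2. Some genes that the rule would name are not reported here. The genes and lists were chosen with earlier results of these data known. Intervals and floors cover counting error only.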

Additional observations from a re-analysis of the deposited data

How the results depend on the processing

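Vim (log2 fold change -1.75 to -1.48), Epcam (-1.36 to -1.10), Cdh1 (-0.35 to -0.10) and Zeb2 (1.18 to 1.93) kept their direction and call under all 17 alternatives. With scaling to library totals, 4 EMT genes were called higher and 3 lower, 4 epithelial regulators were lower, 6 mesenchymal and matrix genes were higher and Fn1 turned to 0.089; over all genes 6179 were then called higher and 3641 lower, so that 62.9% of calls were higher. The number of EMT genes called higher was 1 with at least 10 counts in every library, 1 with DESeq2, 1 with halved counts, and 1 to 2 with 1 library left out. Zeb1 was tested under only 15 of the 17 alternatives. Leaving out 1 library gave 3 to 5 mesenchymal and matrix genes higher. With the length and GC trend removed, 1 gene of the cadherin-catenin list was higher, Twist1 turned to 0.042 and Kdm3b to -0.15. The ratios of Cdh2 to Cdh1 (-1.78 to 0.088) and Snai2 to Snai1 (-1.14 to 0.64) changed sign when 1 library was left out. Beyond the scaling and the fewer genes or libraries used, the cause was not tested.

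The labels do not say whether same-numbered libraries were paired. Deviations from the group means of same-numbered libraries correlated at -0.00987, 0.017 and 0.0137, and 4 of 6 libraries correlated best with their own number. With 3 libraries per group these values cannot decide whether the libraries were paired. With a replicate block, 4802 genes were called higher and 4722 lower, against 4908 and 4841 without it, Vim was at -1.69 and Zeb2 at 1.72, and the counts of EMT genes called stayed at 2 higher and 5 lower. Depth limits Cdh2, Snai2 and Zeb1, for which differences were not measurable or not stable.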
